A study of Mus musculus with 3 samples.

Results

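Interferon-stimulated genes are the genes that cells switch on when they sense an interferon, the signalling protein released on contact with a virus or with foreign nucleic acid. A list of 49 such genes was read by gene name, out of 54532 genes in the deposited table, and all 49 names were found. Oas2, Oas3 and Lgals3bp, the genes that mark the list, were detected in every library. The cells were RAW264.7, a wild-type mouse macrophage line that turns into osteoclasts, the cells that resorb bone, when given the cytokine RANKL. Per the labels, RANKL was given for 3 days in every group. One group then had no further treatment (labelled 0 h, here RANKL alone), and the others had thyroid stimulating hormone (TSH) at 10 mU/mL for 2 h or 24 h. Each group is 1 library of 1 cell line. The column names T1 and T2 mark the TSH libraries without saying which one is 2 h and which is 24 h, so nothing is read from the hours, T1 and T2 are never averaged, and time in culture cannot be told apart from TSH.

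Type I interferons bind the receptor pair Ifnar1 and Ifnar2, whose kinases Jak1 and Tyk2 phosphorylate transcription factors of the STAT family. Stat2 and Irf9 are parts of the complex ISGF3, which binds a DNA element called the ISRE beside interferon-stimulated genes. The gene products detect viral RNA, cut or edit it, block translation, or hold virus particles at membranes. In osteoclast precursors, RANKL is known to induce interferon beta, which restrains osteoclast formation in a feedback loop.

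The element is shown first because it is what many of these genes are known to share. RefSeq promoter windows on GRCm38.p6, from 250 bases before to 50 bases after each start site, matched 39 of the 49 genes by symbol. The ISRE core searched was GAAANNGAAA on both strands, counting overlapping matches. It was present in 21 of the 39 genes (53.8%) and in 3.99% of all 27025 genes with such windows, or 3.44% of the 32851 windows themselves. The shorter STAT core, TTCNNNGAA, which can share bases with an ISRE match, was present in 13 of the 39 (33.3%), in 9.55% of all genes and in 8.3% of windows. A match describes these letters in these windows and is no evidence of binding.

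The 120 bases before the start site follow for 8 genes, from the RefSeq windows, written 5′ to 3′ along each gene's strand, with matches to the ISRE core in capitals on whichever strand they lie. Oas3, Isg15, Lgals9, Lgals3bp and Irf9 are shown because their levels are described below, Oas1a as the chromosomal neighbour of Oas3, and Ifit1 and Gbp2 as classical targets with few or no reads here. Oas3 lies at chr5:120777660-120777779 and Oas1a at chr5:120907526-120907645, both on the minus strand. Isg15 lies at chr4:156200819-156200938, Lgals9 at chr11:78984925-78985044 and Lgals3bp at chr11:118401960-118402079, all on the minus strand. Irf9 lies at chr14:55603865-55603984, Ifit1 at chr19:34640769-34640888 and Gbp2 at chr3:142620543-142620662, all on the plus strand.
Oas3: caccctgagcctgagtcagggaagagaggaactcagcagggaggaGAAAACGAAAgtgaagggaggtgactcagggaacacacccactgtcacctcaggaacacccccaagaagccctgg
Oas1a: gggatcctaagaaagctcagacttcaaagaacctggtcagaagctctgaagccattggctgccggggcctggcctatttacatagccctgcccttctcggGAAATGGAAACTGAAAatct
Isg15: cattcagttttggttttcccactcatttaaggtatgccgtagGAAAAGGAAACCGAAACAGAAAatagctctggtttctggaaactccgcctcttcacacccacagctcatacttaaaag
Lgals9: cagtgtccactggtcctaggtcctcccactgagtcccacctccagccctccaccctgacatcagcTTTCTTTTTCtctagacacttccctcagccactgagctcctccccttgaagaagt
Lgals3bp: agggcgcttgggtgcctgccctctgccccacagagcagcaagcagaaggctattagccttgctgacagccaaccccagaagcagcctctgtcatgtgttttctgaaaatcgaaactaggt
Irf9: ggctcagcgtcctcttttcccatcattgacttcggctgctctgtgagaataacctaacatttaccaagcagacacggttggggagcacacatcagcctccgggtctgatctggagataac
Ifit1: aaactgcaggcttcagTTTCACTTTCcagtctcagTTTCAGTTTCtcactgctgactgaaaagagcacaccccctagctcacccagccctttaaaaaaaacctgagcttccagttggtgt
Gbp2: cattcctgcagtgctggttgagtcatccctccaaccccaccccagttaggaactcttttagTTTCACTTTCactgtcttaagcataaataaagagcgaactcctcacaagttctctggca
Oas3 held 1 match in this stretch, Oas1a 2 overlapping matches, Isg15 3 overlapping matches, Ifit1 2 separate matches, and Lgals9 and Gbp2 1 each. The stretches of Lgals3bp and Irf9 held none. Irf9 had 2 RefSeq windows, both without a match, and the stretch shown comes from 1 of them. Both stretches lie inside the gene as deposited, where Irf9 starts at 55603571 and Lgals3bp, on the minus strand, at 118402092. These are therefore the bases before RefSeq starts, not before the deposited ones. Among the 7 matched genes whose level was higher in T2 than in RANKL alone by the counting rule below, 4 had an ISRE match in the window, and among the other 32 matched genes 17 had one. Oas2 and Dhx58, also higher in T2, had no window matched by symbol and are in neither count.

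**Figure D1:**
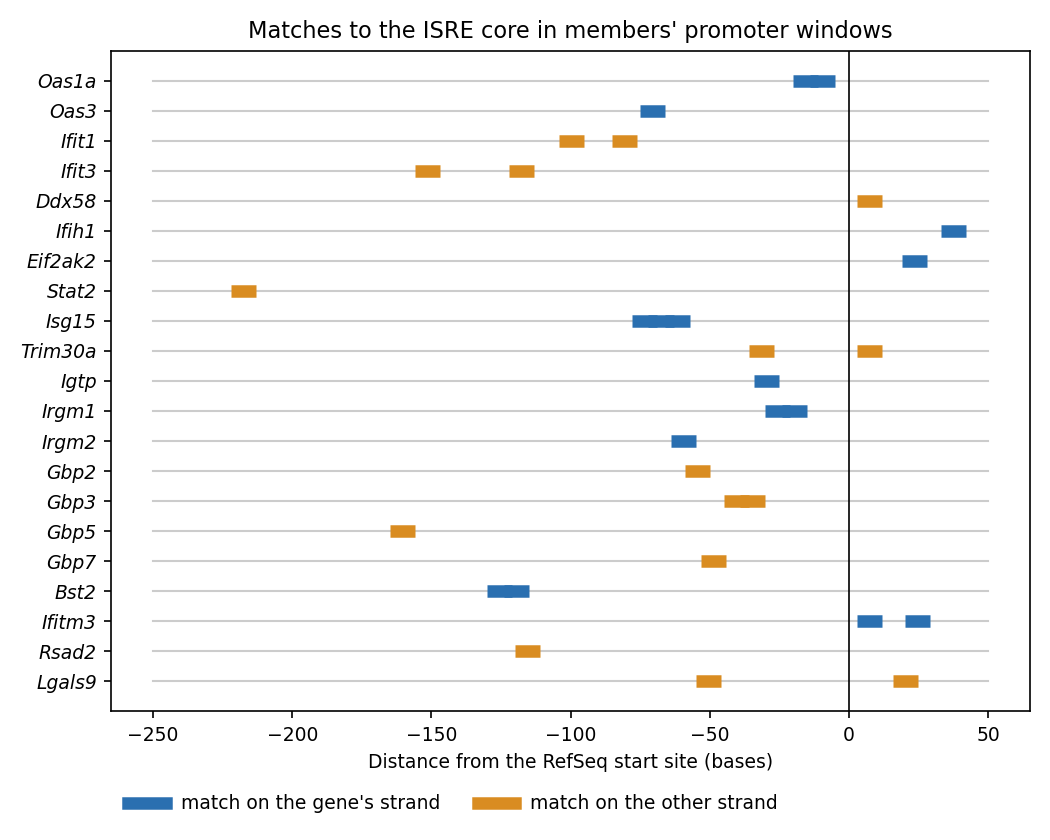
Positions of ISRE core matches in the RefSeq promoter windows of the 21 genes that have one, as distance in bases from the start site, which is at 0. Blue marks a match on the gene's own strand and orange a match on the other strand, and each grey line is the searched window. Most matches lie within 130 bases before the start site, and Ifit3, Gbp5 and Stat2 have matches farther upstream.

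Levels are given as FPKM (a depth-scaled number of fragments for each kilobase of a gene), in the order RANKL alone, T1, T2. Reads per gene were recovered from them and summed to 16156926, 16809034 and 17390744. Since each group is a single library, replicate error is unknown and no p-value is given. A ratio of FPKM carries an exact conditional (Clopper-Pearson) 95% interval from the reads, which covers counting error only. "Beyond counting error" means that this interval leaves out 1, and this compares libraries, not conditions. A filter kept the 11069 genes whose mean over the 3 libraries reached 1 FPKM. In bulk RNA, more cells that express a gene and more RNA per cell cannot be told apart.

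Of the 49 interferon-stimulated genes 24 passed the filter, 22 had reads but a mean under 1 FPKM, and Oasl2, Mx1 and Gbp2 had 0 reads in all 3 libraries. Isg15, Irf7, Ifi44 and Dhx58 passed only through T1 or T2, being under 1 FPKM in RANKL alone, so their pass is not independent of being higher there. The levels spanned a wide range. Ifitm3 had 230, 247 and 238 FPKM, whereas Ifit1, one of the most inducible genes of the family, had 1, 3 and 6 reads.

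**Figure D2:**
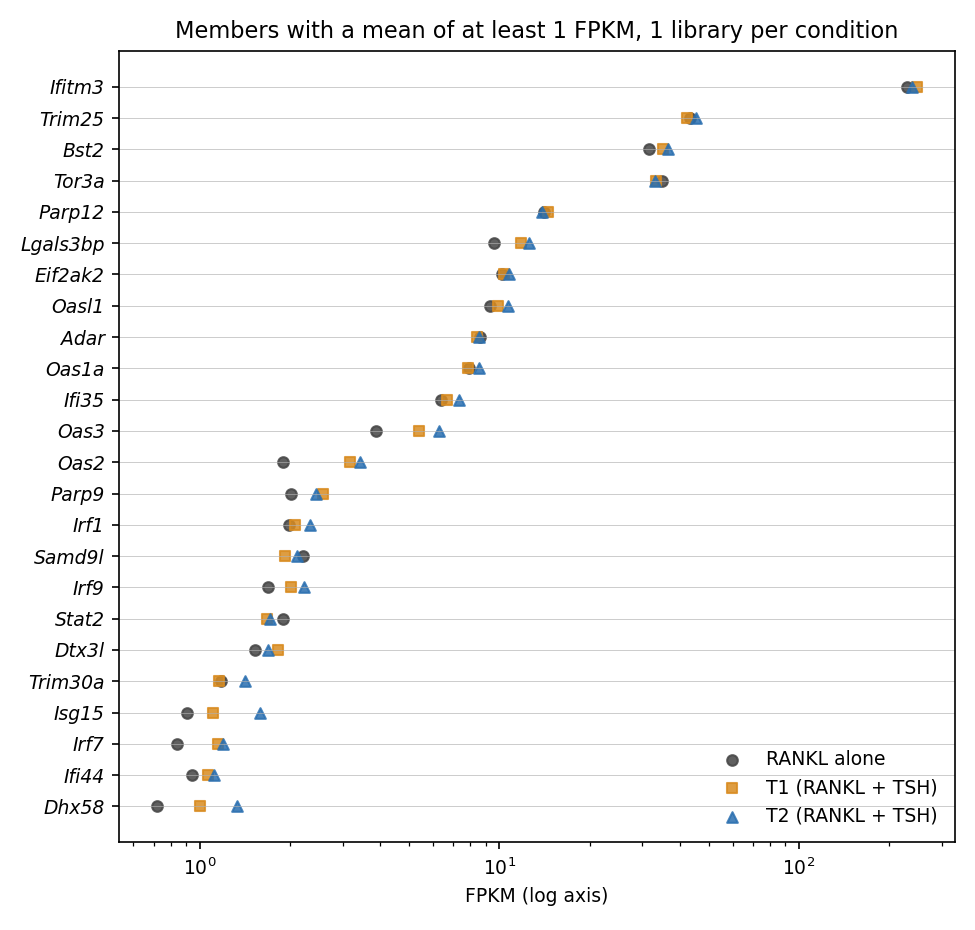
FPKM on a log axis of the 24 genes past the filter, ordered by level, with 1 point per library and no error bars because each condition is 1 library. Ifitm3 stands highest at 230 to 247 FPKM, the points of Oas2 and Oas3 for T1 and T2 lie clearly to the right of RANKL alone, and those of Adar and Parp12 nearly coincide.

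In T1 against RANKL alone, 17 of these 24 genes were higher and 7 lower, beside 49.6% higher among all genes past the filter. Beyond counting error 5 were higher (Oas2, Oas3, Parp9, Ifitm3 and Lgals3bp) and 0 lower, where 10.8% of all genes past the filter were higher and 12.2% lower by the same rule. Oas2, Oas3 and Lgals3bp mark the list, which was chosen with Oas2 already reported higher in T2. Calls of these markers, here and below, cannot be taken as independent of that choice. The other T1 calls were Parp9 and Ifitm3. The median log2 change, on log2(FPKM + 1), was 0.08 for the 24 and -0.001 for all genes past the filter. None reached 1.5-fold on that scale, which 2.62% of all genes did in either direction. Log2 of FPKM + 1 understates the change of low genes. With a filter of at least 5 FPKM, 3 of 12 members were higher beyond counting error (the markers Oas3 and Lgals3bp, and Ifitm3), beside 13.1% of all genes. The median of the 12 was 0.04. That filter leaves out Isg15, Irf7, Ifi44 and Dhx58, which are among the 17 and passed the main filter only through T1 or T2.

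In T2 against RANKL alone, 19 of the 24 were higher and 5 lower, beside 49.4% higher among all genes past the filter. Beyond counting error 7 were higher (Oas2, Oas3, Lgals3bp, Dhx58, Irf9, Bst2 and Trim25) and 0 lower, beside 10.2% higher and 13.2% lower among all genes past the filter. Of the 7, Oas2, Oas3 and Lgals3bp are the markers, and Oas2 was known to be higher in T2 when the list was chosen. The median log2 change was 0.16, and -0.002 over all genes. On log2(FPKM + 1), Oas2 alone reached 1.5-fold, with a change of 0.61, beside 2.46% of all genes. By plain FPKM ratio, Dhx58 at 1.84, Oas2 at 1.81, Isg15 at 1.76 and Oas3 at 1.63 were above 1.5. The interval of Isg15 (0.81 to 4.04) includes 1. The median fell to 0.07 with an added 5 FPKM and to 0.08 with a filter of at least 5 FPKM, both on the log2 scale. With that filter 4 of 12 members were higher beyond counting error (the markers Oas3 and Lgals3bp, and Bst2 and Trim25), beside 12.1% of all genes. With a 99% interval 4 of 24 were higher, beside 5.43%. Isg15, Irf7, Ifi44 and Dhx58, which passed the main filter only through T1 or T2, are among the 19. Dhx58 is also among the 7. The filter of at least 5 FPKM leaves these genes out. The T1 and T2 comparisons share the library of RANKL alone, so a low value there raises both.

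T2 and T1 were also set against each other, without that library. Here 19 of the 24 were higher in T2 and 5 lower, beside 48.9% higher among all genes past the filter. Beyond counting error 2 were higher (the marker Oas3, and Trim25) and 0 lower, where the shares over all genes were 7.93% and 10.1%. Isg15, Irf7, Ifi44 and Dhx58, which passed the filter only through T1 or T2, are among the 19. The median log2 difference was 0.08, and -0.003 over all genes, and no member reached 1.5-fold, which 2.27% of all genes did. For the other members named for T1 or T2, T2 over T1 ranged from 0.948 (Parp9) to 1.32 (Dhx58), with intervals that hold 1.

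Over the 46 genes with at least 1 read, whether or not they passed the filter, 7 were higher and 1 lower beyond counting error in T1, where 6.1% and 6.83% of the 22486 genes with a read were. In T2 the counts were 9 higher and 0 lower, beside 6.18% and 7.16%. In T2 against T1 they were 4 higher and 0 lower, beside 5% and 5.55%. The additional genes are thinly covered and are described below by their reads.

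**Figure D3:**
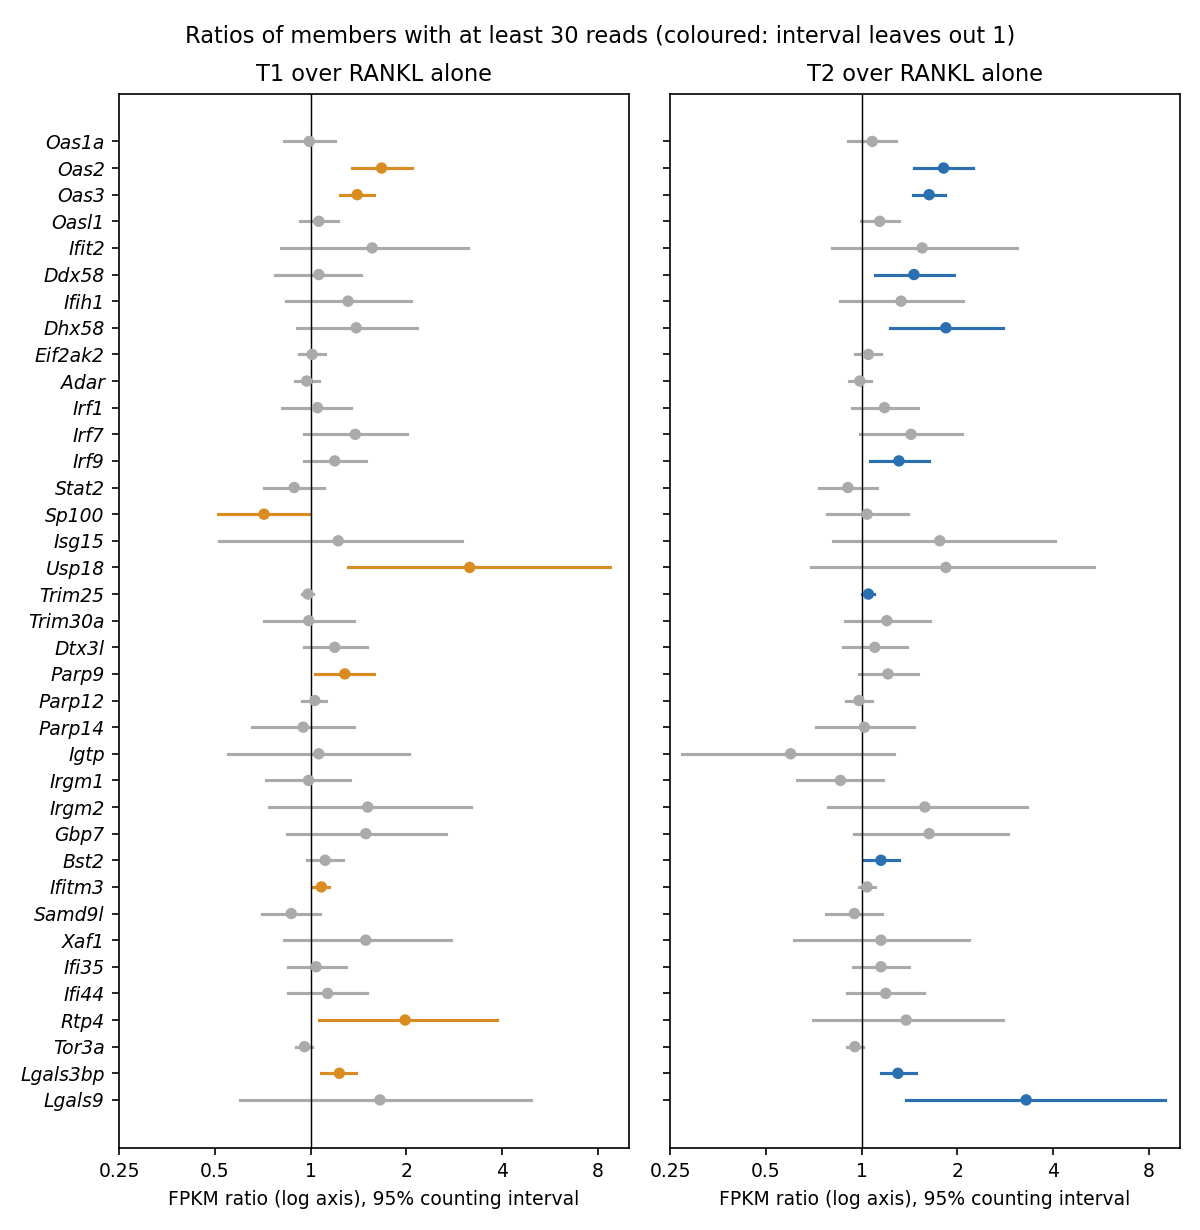
FPKM ratios on a log axis for the 37 genes with at least 30 reads over the 3 libraries, T1 over RANKL alone on the left and T2 over RANKL alone on the right, with 95% counting intervals as bars. Coloured genes have an interval that leaves out 1, and grey genes do not. Oas2 and Oas3 stand to the right of 1 in both panels, and the widest intervals belong to Usp18, Lgals9 and Isg15, which have few reads.

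On log2(FPKM + 1), Oas2 and Oas3 had the largest changes of the members past the filter in T1 and in T2. OAS enzymes make 2′-5′ linked oligoadenylates on double-stranded RNA, which lead to the cutting of RNA in the cell. Oas2 had 136, 236 and 267 reads and 1.89, 3.16 and 3.42 FPKM. Both TSH libraries stood well above RANKL alone, at ratios of 1.67 (1.35 to 2.08) for T1 and 1.81 (1.46 to 2.24) for T2, and close to each other, at 1.08 (0.905 to 1.3) for T2 over T1. Oas3, the largest of these enzymes, had 440, 640 and 778 reads and 3.86, 5.40 and 6.28 FPKM. The 3 libraries were separate for this gene, with ratios of 1.4 (1.24 to 1.58) for T1 and 1.63 (1.45 to 1.83) for T2, and 1.16 (1.05 to 1.29) for T2 over T1.

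Oas1a, whose product is an active synthetase, had 241, 248 and 282 reads and 7.93, 7.85 and 8.54 FPKM, which did not separate beyond counting error. Oasl1, a family member known to repress translation of the factor Irf7, had 392, 433 and 487 reads, with a T2 ratio of 1.14 whose interval (0.999 to 1.31) just holds 1. Oasl2 had 0 reads, where 3 reads would have been 0.0292 FPKM in RANKL alone and 0.0269 in T2. Per length, Oas2 therefore began lowest of the 4 detected members and showed the largest ratio.

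Oas2 and Oas3 are neighbours on chromosome 5 (GRCm38), Oas2 at 120730333 to 120749853 and Oas3 at 120753098 to 120777661, both on the minus strand, in a cluster with the Oas1 genes. Oas1g, next to Oas1a, had 129, 151 and 202 reads, with a T2 ratio of 1.44 (1.15 to 1.81) and a T1 ratio of 1.13 (0.884 to 1.44). Oas1a and Oas1g transcripts are 97.6% identical over 1861 bases, so how their reads were divided is uncertain. Their summed reads of 370, 399 and 484 gave ratios of 1.04 (0.898 to 1.2) for T1 and 1.2 (1.05 to 1.38) for T2. The other Oas1 paralogs were barely read: Oas1c had 10, 15 and 18 reads, Oas1b 9, 17 and 12, Oas1h 2, 2 and 9, and Oas1d, Oas1e and Oas1f 0. Rasal1, on the far side of Oas2 and no interferon gene, had 118, 88 and 106 reads and ratios of 0.717 (0.538 to 0.953) and 0.827 (0.63 to 1.08). Dtx1, between Rasal1 and Oas2, had 5, 8 and 10 reads, too few to place it, with ratios of 1.54 (0.444 to 5.98) and 1.84 (0.573 to 6.86).

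The galectin group holds the third marker gene. Lgals3bp encodes a secreted glycoprotein that binds galectins. It had 441, 563 and 625 reads and 9.60, 11.8 and 12.5 FPKM, with ratios of 1.23 (1.08 to 1.39) for T1 and 1.3 (1.15 to 1.48) for T2. T1 and T2 were not separate, at 1.06 (0.946 to 1.19). Lgals9 encodes galectin-9, a lectin secreted by many immune cells. It had only 7, 12 and 25 reads, and its T2 ratio of 3.29 (1.38 to 9) is correspondingly imprecise, while its T1 ratio of 1.65 (0.599 to 4.94) includes 1.

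Of the 6 genes for nucleic acid sensors and editors, all with reads, 0 were beyond counting error in T1 and 2 were higher in T2 (Dhx58 and Ddx58). Among all genes with a read, 6.1% were higher and 6.83% lower in T1, and 6.18% and 7.16% in T2. Of the 3 sensors and editors that passed the filter, Dhx58 was the 1 higher in T2, beside 10.2% of all genes past the filter. Dhx58 passed only through T1 and T2. It encodes LGP2, a regulator of the RNA sensors RIG-I and MDA5. It had 38, 55 and 76 reads and 0.720, 1.0 and 1.33 FPKM, with a T2 ratio of 1.84 (1.23 to 2.79) and a T1 ratio of 1.39 (0.904 to 2.16). Ddx58, encoding RIG-I itself, had 82, 90 and 130 reads, under the filter. T2 stood apart from both other libraries for this gene, at 1.46 (1.1 to 1.95) over RANKL alone and 1.38 (1.05 to 1.83) over T1, while T1 over RANKL alone was 1.06 (0.774 to 1.44). Ifih1, encoding MDA5, had 36, 49 and 52 reads, and its T2 ratio of 1.33 (0.853 to 2.09) includes 1.

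The other RNA-binding effectors did not separate the libraries, although those of the editor and the kinase were well read. Eif2ak2 encodes PKR, the kinase that halts translation on double-stranded RNA. It had 844, 888 and 963 reads, and the T2 ratio was 1.05 (0.956 to 1.15). Adar, the adenosine-to-inosine RNA editor, had 1131, 1142 and 1213 reads and a T2 ratio of 0.987 (0.91 to 1.07). Zbp1, a sensor of left-handed nucleic acid, had 0, 0 and 3 reads. The counts behind Eif2ak2 and Adar would have placed a T2 ratio of 1.1 and 1.08 beyond counting error.

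Among the transcription factors, Irf9, the DNA-binding part of ISGF3, was higher in T2. It had 147, 182 and 210 reads and 1.69, 2.02 and 2.23 FPKM, with T1 between the other libraries and ratios of 1.19 (0.953 to 1.49) for T1 and 1.31 (1.06 to 1.63) for T2. Irf7, the factor that amplifies interferon alpha production, had 51, 73 and 79 reads, and ratios of 1.38 (0.95 to 2.01) and 1.43 (0.99 to 2.07), both including 1. Irf1, a factor induced by interferon gamma, had 127, 138 and 163 reads. Stat2, the partner of Irf9, had 181, 167 and 178 reads, and its ratios of 0.887 (0.715 to 1.1) and 0.905 (0.732 to 1.12) lay below 1 without leaving it out.

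Sp100, a protein of PML nuclear bodies, was the 1 member lower beyond counting error in any comparison. It had 89, 66 and 101 reads, under the filter, with a T1 ratio of 0.713 (0.511 to 0.992) and a T2 over T1 ratio of 1.46 (1.06 to 2.03). Sp100 belongs to an expanded mouse family, and with the reads of its near-identical copies the T1 ratio was 0.811 (0.588 to 1.11) and the T2 over T1 ratio 1.34 (0.987 to 1.83).

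Isg15, its removal enzyme and the ubiquitin and ADP-ribose enzymes gave mixed values. Isg15 encodes a ubiquitin-like modifier and is among the genes most strongly induced by interferon. It had 11, 14 and 21 reads, or 0.902, 1.10 and 1.59 FPKM, so with 11 reads in RANKL alone a T2 ratio below 2.18 could not have left the counting error. Usp18, the protease that removes Isg15 and dampens interferon receptor signalling, had 7, 23 and 14 reads, and T1 stood apart at 3.16 (1.31 to 8.72). The T2 ratio of Usp18 was 1.84 (0.695 to 5.39).

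Parp9 and Dtx3l encode partners in an ADP-ribosylation and ubiquitin ligase complex. Parp9 had 158, 210 and 208 reads and 2.01, 2.57 and 2.44 FPKM, and T1 was higher at 1.28 (1.03 to 1.58), T2 at 1.21 (0.981 to 1.5). Dtx3l had 141, 175 and 169 reads, with a T1 ratio of 1.19 (0.951 to 1.5). The genes share 458 exon bases on opposite strands, and the handling of strand is not given in the sources used here, so part of their reads could be exchanged.

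Trim25, the ubiquitin ligase that activates RIG-I, had 4016, 4093 and 4560 reads and 43.3, 42.4 and 45.2 FPKM. Its T2 ratio was 1.05, with an interval from just above 1 to 1.09, and its T2 over T1 ratio was 1.07 (1.02 to 1.11), small differences that its depth makes visible. Trim30a, a regulator of inflammatory signalling, had 78, 80 and 102 reads. Parp12 had 910, 971 and 970 reads and Parp14 63, 62 and 70, both ADP-ribosyltransferase genes, and neither left the counting error.

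The membrane proteins included the most abundant member. Ifitm3, which blocks the fusion of viruses with endosomes, had 2510, 2812 and 2832 reads, or 230, 247 and 238 FPKM. T1 was higher at 1.08 (1.02 to 1.14), and T2 stood between at 1.04 (0.984 to 1.1). Bst2, encoding tetherin, which holds budding virus at the cell surface, had 461, 531 and 578 reads and 31.6, 35.1 and 36.5 FPKM. Its T2 ratio was 1.15 (1.02 to 1.31) and its T1 ratio 1.11 (0.976 to 1.26).

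Of the remaining effectors, Rtp4 had 16, 33 and 24 reads, with T1 higher at 1.98 (1.06 to 3.86) and T2 at 1.38 (0.704 to 2.78). Rsad2, encoding viperin, had 4, 6 and 10 reads and Isg20, an RNA exonuclease gene, 6, 6 and 10. Xaf1 had 20, 31 and 25 reads, Samd9l 194, 175 and 200, Ifi35 178, 193 and 222, and Ifi44 93, 109 and 120, all with intervals that hold 1. Tor3a, an endoplasmic reticulum ATPase gene, had 2187, 2173 and 2262 reads and ratios of 0.956 (0.9 to 1.01) and 0.952 (0.897 to 1.01).

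The IFIT genes, whose products bind foreign RNA ends, and the interferon-inducible GTPases were thinly read. Ifit1 had 1, 3 and 6 reads, Ifit2 16, 26 and 27, and Ifit3 0, 2 and 1. At 1 read in RANKL alone, Ifit1 would have needed a T2 ratio of 8.28 to leave the counting error. Mx1, the influenza restriction factor gene, had 0 reads, and Mx2 had 0, 0 and 1. The immunity-related GTPases, which attack the vacuoles of intracellular parasites, had 88, 90 and 82 reads for Irgm1, 14, 22 and 24 for Irgm2, 20, 22 and 13 for Igtp, and 9, 3 and 7 for Ifi47. The guanylate-binding proteins, strong targets of interferon gamma, had 22, 34 and 39 reads for Gbp7, 6, 4 and 12 for Gbp3, 0, 2 and 1 for Gbp5, and 0 for Gbp2. None of the 10 GTPase genes passed the filter, and of the 8 with reads none left the counting error in any comparison. Among all genes with a read, 6.1% were higher and 6.83% lower in T1, and 6.18% and 7.16% in T2. In T2 against T1 the shares were 5% and 5.55%.

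Read as 1 sum, the 25 genes under the filter had 506, 586 and 677 reads. Scaled to depth, the sum in T2 was 1.23 (1.1 to 1.38) times that in RANKL alone, and in T1 1.11 (0.987 to 1.26). All genes under the filter together gave 1.05 (1.04 to 1.06) for T2 and 1 (0.991 to 1.01) for T1. Of these genes Ddx58 had the largest gain in reads between RANKL alone and T2.

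**Figure D4:**
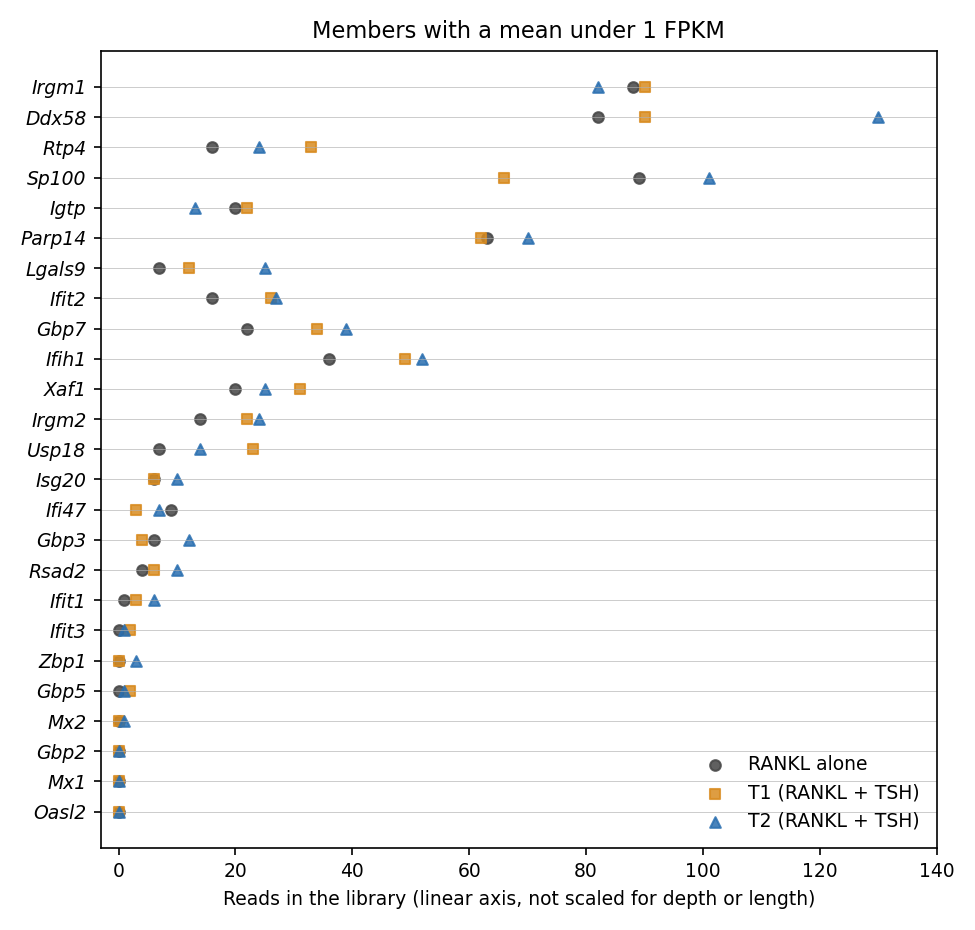
Reads per library of the 25 genes with a mean under 1 FPKM, on a linear axis, not scaled to depth or length, with 1 point per library. T2 lies to the right for Ddx58, at 130 reads, and T1 lies to the left for Sp100, at 66 reads, and the genes plotted from Usp18 down hold 23 reads or fewer in every library.

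Because these genes respond to interferon, the pathway above them was read from lists of ligands, receptors, brakes and sensors. Of 21 interferon genes, 19 had 0 reads in all 3 libraries, among them Ifnb1, the interferon beta gene. Ifna13 and Ifnab had 1 read each, in RANKL alone. A count of 0 limits the RNA present at sampling and says nothing of protein or of an earlier time.

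Receptors and kinases were well expressed. Of 11 genes 10 passed the filter, with 1 higher and 1 lower beyond counting error in T1 and 1 lower in T2. Among all genes past the filter 10.8% were higher and 12.2% lower in T1, and 10.2% and 13.2% in T2. Ifnar1 had 15.9, 16.0 and 14.6 FPKM and a T2 ratio of 0.919 (0.855 to 0.987). Ifnar2 had 10.2, 11.2 and 10.8 FPKM, and the interferon gamma receptor genes Ifngr1 and Ifngr2 had 11.4, 11.2 and 11.1 FPKM and 40.8, 40.1 and 40.3 FPKM. Jak1 had 21.5, 21.1 and 21.4 FPKM. Tyk2 was higher in T1, at a ratio of 1.17 (1.07 to 1.28), and Stat3 lower, at 0.858 (0.787 to 0.936).

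Brakes on the pathway gave 12 of 13 genes past the filter. In T1, 1 was higher (Ptpn6, a phosphatase gene, at 1.09) and 0 lower beyond counting error. In T2, Ptpn11 was higher at 1.06 and Irf2, a repressor that competes for the interferon element, lower at 0.780 (0.683 to 0.89). In the list for sensing and induction 15 of 21 passed, with 4 higher and 3 lower in T1, and 1 higher and 1 lower in T2. Mb21d1, which encodes the DNA sensor cGAS, was higher in both, at 1.12 (lower bound 1.01) and 1.2 (1.09 to 1.33). Traf6, the adaptor of RANK and of Toll-like receptors, was lower in both, at 0.837 (0.783 to 0.893) and 0.926 (0.869 to 0.987). The others in T1 were Tlr7 at 1.30, Rnaseh2a at 1.23 and Rnaseh2c at 1.14, all higher, and Mavs at 0.876 and Traf3 at 0.927, both lower. Both lists stand beside 10.8% higher and 12.2% lower of all genes past the filter in T1, and 10.2% and 13.2% in T2.

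A further list of 68 interferon-stimulated genes outside the 49 was read in the same way. Of these 37 passed the filter, with 5 higher and 4 lower beyond counting error in T1, and 3 higher and 2 lower in T2. The shares over all genes past the filter were 10.8% and 12.2% in T1, and 10.2% and 13.2% in T2. The median log2 changes of the 37 were 0.05 and 0.04, below the 0.08 and 0.16 of the 24 members past the filter, and nearer to those of all genes. By direction alone, 22 of the 37 were higher and 15 lower in T1, and 27 higher and 10 lower in T2. Among all genes past the filter 49.6% and 49.4% were higher. In T2, Oas1g (above), Psme2, a proteasome activator gene, at 1.3 (1.18 to 1.43), and Slfn9 at 1.14 (1.01 to 1.3) were higher, and the RNA helicase genes Mov10 and Znfx1 lower, at 0.781 (0.708 to 0.861) and 0.888 (0.838 to 0.941). Of the T1 ratios past the filter and beyond counting error, the highest were Epsti1 at 1.41, Slfn9 at 1.37 and Slfn5 at 1.32. The lowest were Casp4 at 0.719, Mov10 at 0.832 and Tdrd7 at 0.837. Ifi27l2a, also past the filter, had a T1 ratio of 0.728 (0.51 to 1.03), which includes 1. Under the filter, Il18bp had 16, 36 and 36 reads and was higher in both, at 2.16 (1.17 to 4.18) and 2.07 (1.12 to 4). Sp110 had 54, 19 and 21 reads and was lower in both, at 0.338 (0.189 to 0.58) and 0.358 (0.205 to 0.602). Cxcl10 had 23, 17 and 10 reads and was lower in T2, at 0.4 (0.17 to 0.874). Fcgr1 had 10, 2 and 12 reads and was lower in T1, at 0.192 (0.0205 to 0.903). Over the 62 genes of this list with a read, 6 were higher and 6 lower beyond counting error in T1, and 4 and 4 in T2. Among all genes with a read the shares were 6.1% and 6.83% in T1, and 6.18% and 7.16% in T2. The highest log2 change past the filter in this list was 0.38 in T1 (Slfn9) and 0.42 in T2 (Oas1g), beside 0.52 and 0.61 for Oas2.

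**Figure D5:**
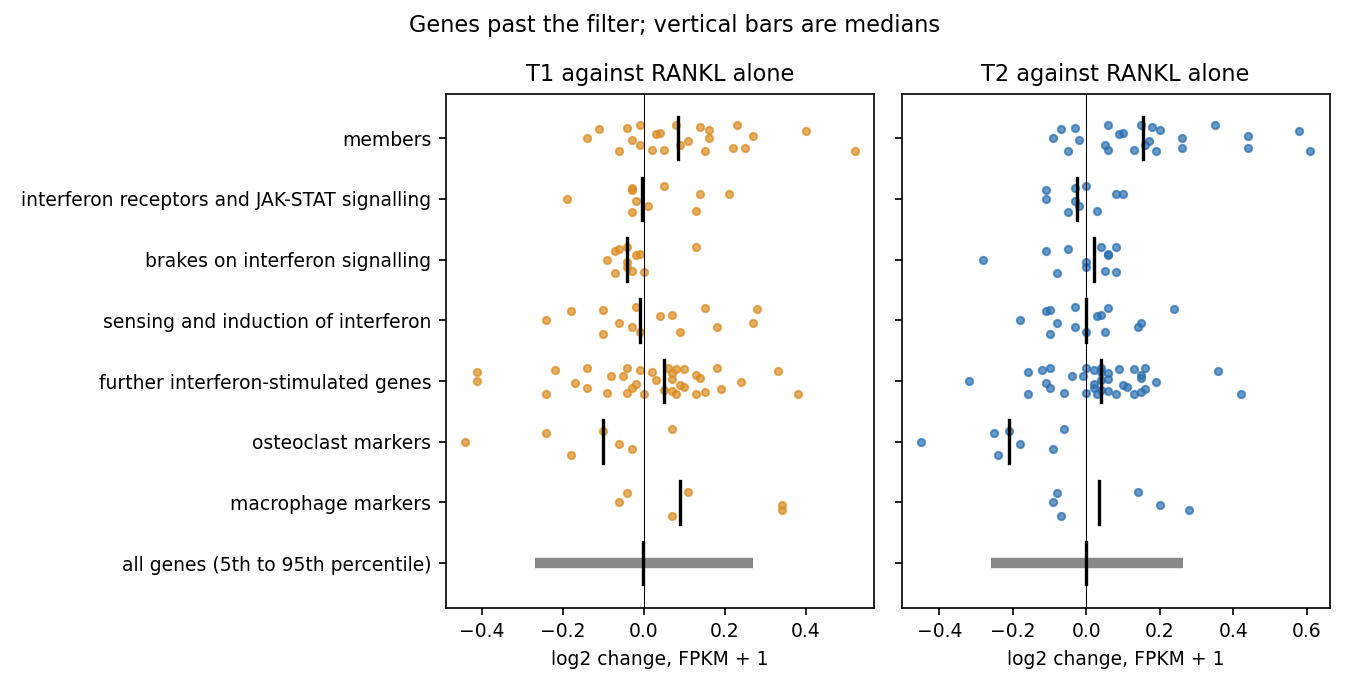
Log2 changes on FPKM + 1 of single genes past the filter, T1 on the left and T2 on the right, each against RANKL alone, with 1 point per gene, spread vertically only for visibility, and a black bar at each median. The 24 members past the filter have medians of 0.08 and 0.16 with Oas2 and Oas3 at the right end, the further interferon-stimulated genes have medians of 0.05 and 0.04, and the grey bar spans all genes from the 5th to the 95th percentile.

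Several of the 49 share sequence with another gene, which leaves their reads uncertain. Near-identical copies include Ifit3b for Ifit3, Trim30d for Trim30a, and Mx1 and Mx2 for each other. Summing each gene's reads with those of its copies left the calls of Ddx58 and Irf9 in place and ended that of Sp100. Adar shares 1365 exon bases with Chrnb2 and Ifi35 shares 290 with Gm11626, each on the opposite strand, and Igtp shares 162 with Irgm2 on the same strand.

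The cells carried the transcripts of their label. Osteoclast markers were abundant, with Ctsk, the collagen-degrading cathepsin K gene, at 1337, 983 and 980 FPKM. All 7 osteoclast markers past the filter were lower in T2 beyond counting error, and in T1 4 were lower and 1, Nfatc1, higher at 1.05 (1.03 to 1.07). The list of 8 summed to 3057, 2541 and 2465 FPKM. Of 6 macrophage markers, 3 were higher and 2 lower beyond counting error in each TSH library against RANKL alone, and 1 higher and 2 lower in T2 against T1, with sums of 1232, 1219 and 1220 FPKM. For both marker lists, the shares over all genes past the filter were 10.8% higher and 12.2% lower in T1, and 10.2% and 13.2% in T2. In T2 against T1 they were 7.93% and 10.1%. The osteoclast list was lower where the interferon-stimulated genes were higher, and its part in the result was not tested. Of plasmacytoid dendritic cell markers, the cells best known for making interferon, Siglech had 0 reads, Ccr9 0, 5 and 6, and Ly6d 0, 0 and 2. Ccr9 was higher in T2 beyond counting error, and Tcf4 was higher in T2 over T1, at 1.11 (1.01 to 1.22). The list's sum of 33.5, 36.9 and 38.7 FPKM came mostly from Bst2, itself one of the 49, and its part in the result was not tested. Of 5 lymphocyte markers Cd3e, Cd3g and Ms4a1 were at 0, and the list summed to 0, 0.1 and 0.2 FPKM. Of 5 fibroblast markers Col1a2 and Col3a1 were at 0, and the list summed to at most 0.1 FPKM in any library.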

How the data were processed

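RNA levels were measured in 3 libraries of RAW264.7 cells, 1 per group. Per the labels' protocols, total RNA was used with a SMARTer mRNA library kit. The submitters' processing notes name the builds GRCm38 and mm10, which are 1 assembly. How reads were aligned, counted, assigned to a strand or divided among several positions is not given in the sources used here. Values are FPKM as the authors deposited them, beside a gene length in bases, and 0 per-sample columns were left unused.

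Multiplied by gene length, 100% of FPKM values above 0 were whole multiples (within 0.01) of 1 step per library, so reads were recovered. For a 1 kb gene, 3 reads equal 0.186, 0.179 and 0.171 FPKM in RANKL alone, T1 and T2. PCR copies are not independent molecules, so intervals cover counting error only. The deposited FPKM already matched median-of-ratios scaling within 0.001% in all 3 libraries.

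The 49 genes, their roles and the 10 other lists (161 symbols) were chosen with earlier results of these data known, in which Oas2 had already been reported higher in T2. Every one of the 49 is named with its reads. Full values are given for the 3 markers (Oas2, Oas3, Lgals3bp) and for genes past the filter beyond counting error. In the other lists, genes past the filter beyond counting error against RANKL alone are named, at most 6 per list by size of ratio, and always Ifnb1, the receptors, Jak1 and Tyk2; some genes that the rule names are not reported here. Other genes named, among them those under the filter, Oas neighbours, cell markers, Mov10, Znfx1, Tdrd7 and Traf3, were chosen after their values were seen.

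BLAST+ 2.17.0 searched for copies (a minimum of 95% identity, 100 aligned bases and 50% of the shorter transcript) among GENCODE M21 transcripts, which hold 99.8% of the identifiers, 98.3% with the same coordinates. Promoter sequences are RefSeq's, on GRCm38.p6, and 43 of 49 windows matched the transcript direction of the same build, 0 the opposite. Functions were tested on simulated reads. The software was Python 3.11.15, pandas 2.3.3, numpy 2.4.6, scipy 1.17.1 and matplotlib 3.10.9. Alternatives were other pseudocounts, filters, folds, scalings and intervals, the mean in place of the median, and leaving out genes with a copy.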

Additional observations from a re-analysis of the deposited data

How the results depend on the processing

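With 1 library per group no library could be left out. No paired analysis was possible because each group is 1 library and T1 and T2 are not assigned to samples. With a filter of at least 5 FPKM, 3 of 12 members were higher beyond counting error in T1 (5 of 24 as reported) and 4 of 12 in T2 (7 of 24), where 13.1% and 12.1% of all genes were, and the T2 median was 0.08 (0.16 as reported). These counts include markers of the list. A pseudocount of 5 gave a T2 median of 0.07, and a 99% interval left 4 of 24 higher in T2, beside 5.43% of all genes. In T1, 1 gene was lower (0 as reported) when genes with at least 1 read were used, and 1 when libraries were rescaled to the same total as in TPM. With genes of at least 1 read, 4 were higher in T2 against T1 (2 as reported). The count past 1.5-fold was 0 in T1 and 1 in T2, and at the lower fold tried it was 2 and 5. With a pseudocount of 0.1 it was 1 and 4. At 2-fold it was 0 in T2, and with scaling by total reads, chosen after seeing the data, it was 2. No share over all genes was computed for these alternative size counts, so they cannot be read beside one. No result changed direction under these alternatives, and median-of-ratios scaling gave the reported values. The cause of these shifts was not tested. Depth limits genes such as Isg15 and Ifit1, and the spread between cultures is unknown.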
